A study of Fundulus heteroclitus with 4 samples.

Results

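The let-7 family of microRNAs (miRNAs) was described in embryos of the Atlantic killifish (Fundulus heteroclitus). Its members were all entries of the 4 deposited count tables whose name is let-7 followed by a letter, with any copy number or species note. The rule used names and no measured value, and it found 11 of 217 entries, which cover the 10 letters a to j. The letter j has an entry named from zebrafish (dre) and another named from pufferfish (tni,fru).

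Small RNA was counted in 1 library for each of 4 groups: New Bedford Harbor (NBH) embryos at 12 days post-fertilisation (dpf), Scorton Creek (SC) embryos at 12 dpf, NBH embryos pooled over 1 to 15 dpf, and SC embryos pooled over 1 to 15 dpf. Both sites are in Massachusetts; as background, New Bedford Harbor is contaminated with polychlorinated biphenyls and its killifish are known for tolerance of dioxin-like compounds. All groups were F1 embryos from eggs and sperm of adult fish joined in vitro, kept in full-strength sea water at 22 °C, and the labels name no chemical exposure. The days of the pool include 12 dpf, so the pooled and 12 dpf groups are not separate stages, and the sources used here do not give how many embryos entered each library. In embryo RNA, fewer cells of a type and less RNA per cell cannot be told apart.

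A mature miRNA guides an Argonaute protein to messenger RNAs that pair with its seed, the bases near its 5′ end. let-7 was first found in the nematode Caenorhabditis elegans as a gene that times the switch from larval to adult cell fates. In vertebrates the mature let-7 miRNAs generally accumulate as cells differentiate, and the RNA-binding protein LIN28 holds their precursors back in early embryos and stem cells. Because all members carry the same seed, they are expected to recognise overlapping sets of targets, and they are told apart in sequencing by a few bases in the middle and the 3′ part.

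The 11 listed mature sequences are shown to let the entries be compared base by base, written 5′ to 3′ as DNA letters, as the deposited tables give them, with the seed (bases 2 to 8) in capitals.
let-7a: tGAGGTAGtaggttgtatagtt
let-7b: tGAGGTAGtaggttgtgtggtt
let-7c: tGAGGTAGtaggttgtatggtt
let-7d: tGAGGTAGttggttgtatggtt
let-7e: tGAGGTAGtagattgaatagtt
let-7f: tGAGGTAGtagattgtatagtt
let-7g: tGAGGTAGtagtttgtatagtt
let-7h: tGAGGTAGtaagttgtgttgtt
let-7i: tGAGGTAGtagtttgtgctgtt
let-7j (dre): tGAGGTAGttgtttgtacagtt
let-7j (tni,fru): tGAGGTAGttttttgtacagtt

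All 11 sequences were 22 bases long and carried 1 shared seed, and none of the entries outside the family carried it (0 entries). The members shared 15 positions, namely bases 1 to 9, 13 to 15 and 20 to 22, and differed at 7, counted from 1 at the 5′ end. With let-7a as the reference, let-7c differed by A19G, let-7f by G12A and let-7g by G12T. Of the others, let-7b differed from let-7a by A17G and A19G, let-7d by A10T and A19G, and let-7e by G12A and T16A. The most distant from let-7a were let-7i (G12T, A17G, T18C and A19T) and let-7j (tni,fru) (A10T, G11T, G12T and T18C). Among the 55 pairs of entries, 8 differed at 1 base and the widest differed at 6. Reads of entries that differ at 1 base could be assigned to either of them where mismatches are allowed; the sources used here do not give that number of mismatches, so the split of counts between such neighbours is uncertain and was not tested. The neighbours at 1 base are let-7a with let-7c, let-7f and let-7g, let-7c also with let-7b and let-7d, let-7f also with let-7e and let-7g, and the 2 forms of let-7j.

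The 4 libraries held 1601093 to 2343143 counts and listed 208 to 210 entries each. Of the 217 entries, 192 had at least 10 counts in at least 2 libraries and were used for comparisons, and 10 of the 11 let-7 entries were among them. Because each group had 1 library, no difference has a replicate check, and every interval given covers counting error only, which also takes no account of reads that are PCR copies of one molecule. Levels are counts per 1000000 (CPM) after TMM scaling, which sets library sizes from a trimmed mean of log ratios. TMM assumes that most entries do not differ, which was not tested. In SC, the rule given below called 26.7% of 191 entries higher and 29.8% lower at 12 dpf than in the pool.

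The family took up a larger share of the SC 12 dpf library than of the others. The let-7 share of counts was 1.00% in NBH at 12 dpf (95% exact binomial interval 0.992 to 1.02), 2.53% in SC at 12 dpf (2.51 to 2.55), 1.10% in pooled NBH (1.08 to 1.11) and 1.17% in pooled SC (1.15 to 1.18). The SC 12 dpf library therefore stands apart from the other 3, which lie close together. It enters the population comparison at 12 dpf and the stage comparison in SC, and there is no second library to replace it. The population comparison in the pools and the stage comparison in NBH do not use it.

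let-7a, let-7d and let-7g held most of the family's counts, and let-7a was the most abundant entry in every library. let-7a made up 46.0% of let-7 counts in NBH at 12 dpf, 52.6% in SC at 12 dpf, 48.7% in pooled NBH and 41.9% in pooled SC. Together, let-7a, let-7d and let-7g made up 78.1%, 89.7%, 81.9% and 79.8% in the same order of libraries. The shares of single entries also differed between libraries. let-7g held 15.2% of let-7 counts in NBH at 12 dpf, 23.3% in SC at 12 dpf, 26.7% in pooled NBH and 26.7% in pooled SC, so its share was lowest in NBH at 12 dpf. let-7d had its smallest share, 6.50%, in pooled NBH, against 11.2% in pooled SC, and held 16.9% in NBH at 12 dpf and 13.8% in SC at 12 dpf. let-7e held 11.6% in NBH at 12 dpf, 3.54% in SC at 12 dpf, 11.1% in pooled NBH and 10.3% in pooled SC, so the SC 12 dpf library had the smallest part of let-7e.

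**Figure D1:**
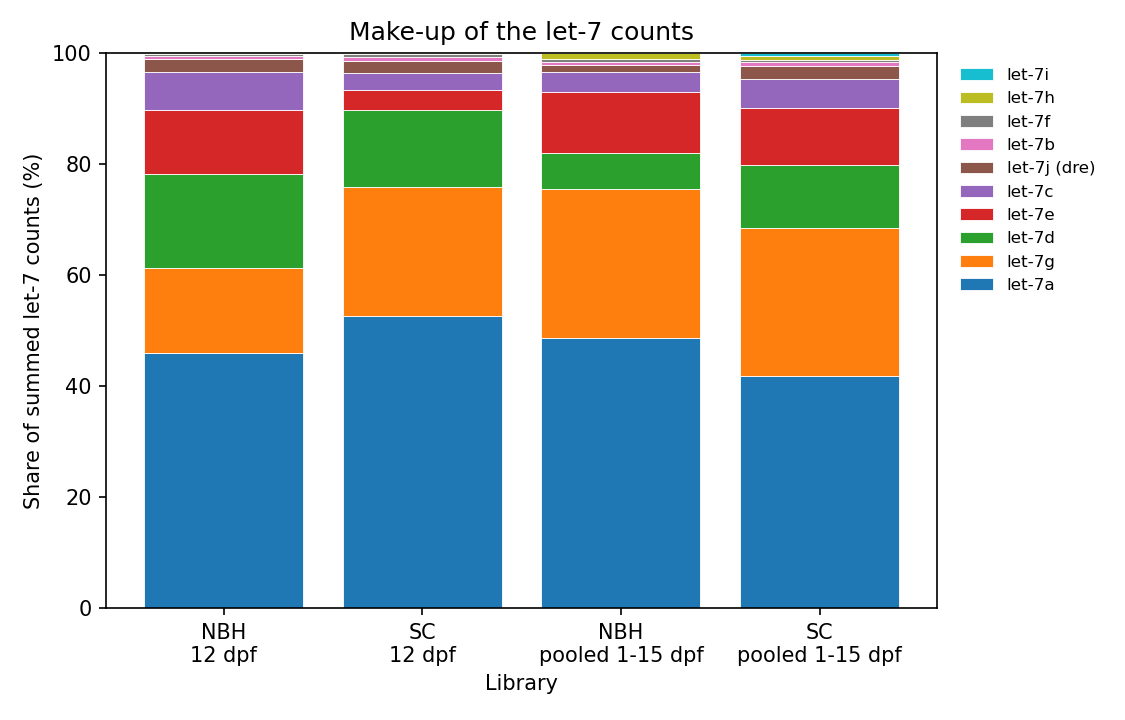
Share of the summed let-7 counts (y axis, percent) taken by each of the 10 entries kept for comparisons, 1 bar per library (x axis). let-7a fills 41.9% to 52.6% of each bar, and let-7e shrinks to 3.54% in SC at 12 dpf.

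The entries fell into a few patterns of level across the 4 libraries, which were grouped after their values were seen and carry no test. let-7a, let-7g, let-7b and let-7f were highest in SC at 12 dpf, as were let-7c, let-7d and let-7j (dre). Unlike those last entries, let-7a, let-7g, let-7b and let-7f stood lower in NBH at 12 dpf than in pooled NBH. let-7a reached 4755 CPM in NBH at 12 dpf, 12608 in SC at 12 dpf, 5829 in pooled NBH and 4604 in pooled SC, on 10636, 31189, 9533 and 7816 counts. The SC 12 dpf level was 2.74 times the lowest level, that of pooled SC. let-7g stood at 1569 CPM in NBH at 12 dpf, 5597 in SC at 12 dpf, 3196 in pooled NBH and 2932 in pooled SC, and unlike let-7a it was lowest in NBH at 12 dpf, where it had 3509 counts. let-7b stood at 55.9 CPM in NBH at 12 dpf, 199.7 CPM (494 counts) in SC at 12 dpf, 70.3 CPM (115 counts) in pooled NBH and 63.6 CPM (108 counts) in pooled SC. let-7f had 104 counts (46.5 CPM), 327 (132 CPM), 101 (61.8 CPM) and 87 (51.2 CPM) in the same order, so that for both rare entries the SC 12 dpf library was high and the other 3 lay close together.

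let-7d and let-7j (dre) stood at higher levels at 12 dpf than in the pool in both populations, and at lower levels in NBH than in SC at both stages. let-7d reached 1748 CPM in NBH at 12 dpf, 3312 in SC at 12 dpf, 777 in pooled NBH and 1234 in pooled SC. let-7j (dre), the zebrafish form, reached 245, 485, 140.0 and 262 CPM in that order. Both carry the substitution A10T, which among the other entries only let-7j (tni,fru) carries. let-7c had the same directions but varied less, with 699.6 CPM in NBH at 12 dpf, 763 in SC at 12 dpf, 431 in pooled NBH and 579 in pooled SC; on identical reads its population log2 ratio at 12 dpf turned to 0.02.

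let-7e varied least of the 10 entries and in the opposite way. It stood at 1202 CPM in NBH at 12 dpf, 849.7 in SC at 12 dpf, 1328 in pooled NBH and 1132 in pooled SC, a range of 1.56-fold with the SC 12 dpf library lowest. let-7e and let-7f differ at 1 base, yet let-7f was highest in the library in which let-7e was lowest. let-7a, which also differs from let-7f at 1 base, was highest in that library as well.

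let-7h and let-7i were rare and were the entries with the widest ranges. let-7h had 6 counts (2.68 CPM, interval 0.984 to 5.84) in NBH at 12 dpf, 55 (22.2 CPM) in SC at 12 dpf, 197 (120.5 CPM) in pooled NBH and 137 (80.7 CPM) in pooled SC. Both 12 dpf libraries were therefore low and both pools high. let-7i had 18 counts (8.05 CPM) in NBH at 12 dpf, 19 (7.68 CPM) in SC at 12 dpf, 17 (10.4 CPM) in pooled NBH and 91 (53.6 CPM) in pooled SC, which alone was high. let-7j (tni,fru), the pufferfish form, was listed in SC alone, with 3 reads at 12 dpf and 0 in the pool. It was not compared; the exact Poisson interval of a count of 0, as used for the other levels, ends at 2.17 CPM in pooled SC, and the floor of 3 counts corresponds to 1.77 CPM.

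**Figure D2:**
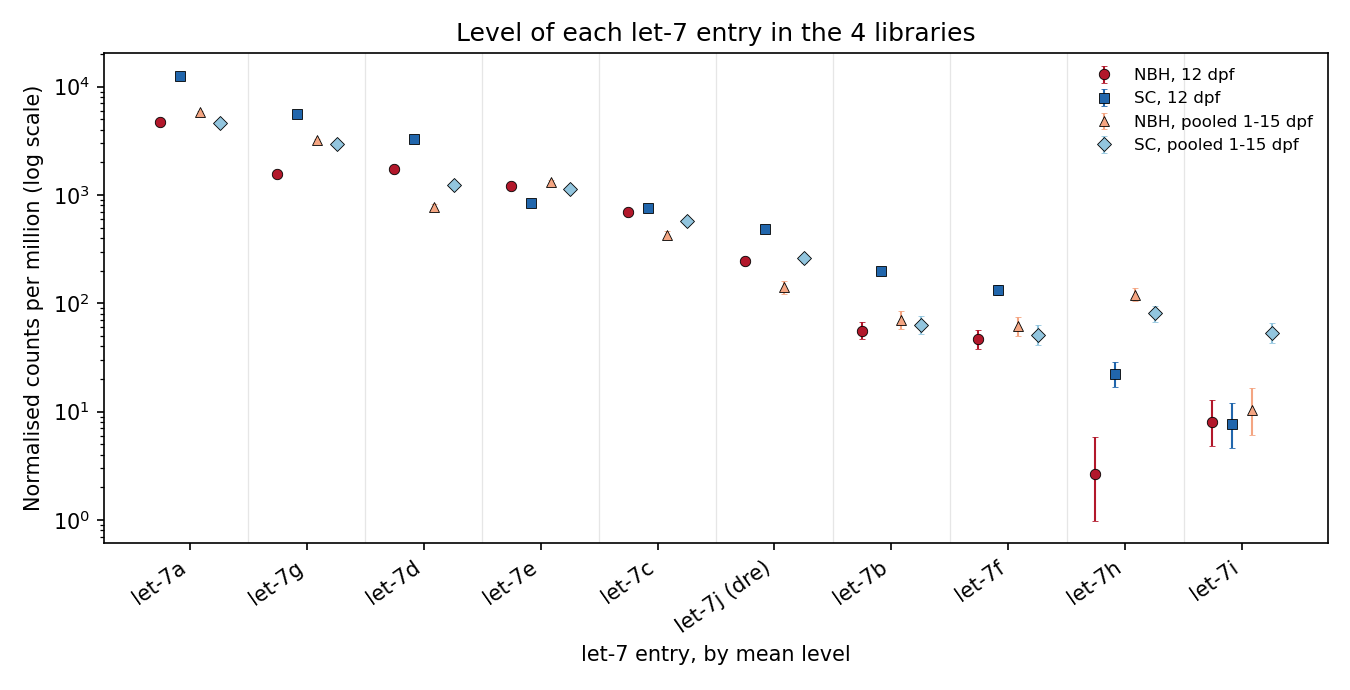
Level of each kept let-7 entry (x axis, by mean level) in normalised counts per 1000000 (y axis, log scale), with 1 point per library and bars for the 95% exact Poisson counting interval. let-7a runs from 4604 to 12608 CPM, let-7e spans 1.56-fold, and let-7h and let-7i spread widest.

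By rank within the family, let-7a was first in every library, and the counting intervals separated most neighbours. let-7d stood second in NBH at 12 dpf and let-7g second in the other 3 libraries. Intervals overlapped for let-7b with let-7f and for let-7i with let-7h in NBH at 12 dpf, and for no neighbours in SC at 12 dpf. In pooled NBH they overlapped for let-7j (dre) with let-7h and for let-7b with let-7f. In pooled SC they overlapped for let-7d with let-7e and along the run let-7h, let-7b, let-7i and let-7f. Among the 192 kept entries, let-7a ranked 52nd in NBH at 12 dpf, 21st in SC at 12 dpf, 47th in pooled NBH and 45th in pooled SC.

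The first comparison set NBH against SC at 12 dpf. Summed let-7 was lower in NBH, at 10331 CPM in NBH and 23978 CPM in SC, a log2 ratio of -1.21 (interval -1.24 to -1.19), or 2.32-fold. An entry was called higher or lower where the ratio was at least 2-fold and its interval left out equality. Of the 10 let-7 entries, 5 were called lower in NBH, 0 higher and 5 neither; among all 191 entries with a ratio the same rule called 13.6% lower and 24.1% higher. The median let-7 log2 ratio was -1.20, and that of all 191 entries was 0.08.

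The entries called lower were let-7a, let-7g, let-7b, let-7f and let-7h. let-7a had a log2 ratio of -1.41 (-1.44 to -1.38), and let-7g one of -1.83 (-1.89 to -1.78), or 3.57-fold. let-7b was lower by about as much as let-7g, with -1.83 (-2.13 to -1.55), and let-7f had -1.50 (-1.84 to -1.18). let-7h, with 6 counts in NBH and 55 in SC, had -2.95 (-4.56 to -1.84). let-7j (dre) and let-7d stood just short of the 2-fold threshold, at -0.98 (-1.13 to -0.84) and -0.92 (-0.98 to -0.87). let-7c was nearly level at -0.12 (-0.22 to -0.03), and let-7i, with 18 counts in NBH and 19 in SC, had 0.065 with an interval that held equality. let-7e was on the higher side, with 0.50 (0.42 to 0.58). Scaling by total counts, by DESeq2 size factors or by TMM without let-7 shifted the median of all entries by -0.12, -0.12 and -0.11 and brought let-7d and let-7j (dre) past 2-fold.

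The stage comparison in SC set 12 dpf against the pool. Summed let-7 was higher at 12 dpf, with 23978 CPM at 12 dpf and 10992 CPM in the pool, a log2 ratio of 1.13 (1.10 to 1.15), or 2.18-fold. Of the 10 entries 4 were called higher, 2 lower and 4 neither, where the rule called 26.7% of all 191 entries higher and 29.8% lower. The median was 0.91 over the let-7 entries and 0.16 over all entries.

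let-7a (1.45, 1.42 to 1.49), let-7b (1.65, 1.35 to 1.96), let-7d (1.42, 1.36 to 1.49) and let-7f (1.36, 1.02 to 1.73) were called higher at 12 dpf in SC. let-7g and let-7j (dre) came close to the threshold with 0.93 (0.89 to 0.98) and 0.89 (0.73 to 1.05). let-7c had a smaller ratio of 0.40 (0.29 to 0.51), and let-7e was on the lower side with -0.41 (-0.50 to -0.32). let-7h and let-7i were called lower, with -1.85 (-2.34 to -1.40) and -2.77 (-3.60 to -2.08). On reads that match a single entry, 9 at 12 dpf and 91 in the pool, the let-7i ratio was -3.91. On identical reads, 1 at 12 dpf and 6 in the pool, it was -2.53 (-8.62 to -0.06). TMM without let-7 shifted the median of all entries by 0.20 and brought let-7g (1.13) and let-7j (dre) (1.09) past 2-fold. Without let-7a, let-7d and let-7g, picked after their counts were seen, the summed log2 ratio of 12 dpf over the pool in SC was 0.15, and that of NBH over SC at 12 dpf was -0.12. let-7e and let-7c hold most of the counts in these sums. The rare let-7b and let-7f, which were called in both comparisons, weigh little in them.

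The stage comparison in NBH gave another picture. Summed let-7 had 10331 CPM at 12 dpf and 11964 CPM in the pool, a log2 ratio of -0.21 (-0.24 to -0.18), which is under the 2-fold threshold. Of the 10 entries 1 was called higher, 2 lower and 7 neither, where the rule called 14.1% of all 192 entries higher and 12.0% lower. The medians were -0.31 for let-7 and 0.05 for all entries. let-7d was the entry called higher, with 1.17 (1.08 to 1.26), so it was called higher at 12 dpf in both populations.

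let-7h and let-7g were called lower at 12 dpf in NBH. let-7h had the lowest ratio of all 192 entries in this comparison, -5.36 (-6.95 to -4.34), on 6 counts at 12 dpf and 197 in the pool, and a pseudocount of 5 brought it to -4.55. let-7g stood at the threshold with -1.03 (-1.09 to -0.96), and scaling by total counts gave -0.94, which is short of it. let-7a (-0.29, -0.33 to -0.25) and let-7f (-0.41, -0.82 to just under 0) were on the lower side without reaching 2-fold, while let-7c (0.70) and let-7j (dre) (0.81) were on the higher side. let-7e was nearly level with -0.14 (-0.23 to -0.06). let-7b, with -0.33 (-0.71 to 0.05), and let-7i, with -0.36 (-1.41 to 0.68), had intervals that held equality.

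In the pooled embryos, NBH against SC, the family was nearly level. Summed let-7 had 11964 CPM in NBH and 10992 CPM in SC, a log2 ratio of 0.12 (0.09 to 0.15), and total counts as the scaling turned its sign (-0.085). Of the 10 entries 1 was called lower, 0 higher and 9 neither, where the rule called 21.1% of all 190 entries lower and 10% higher. Over all entries the rule gave 19 higher and 40 lower, and with total counts 11 higher and 47 lower. The medians were 0.13 for let-7 and 0.08 for all entries.

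let-7i was the entry called lower in pooled NBH, with 17 counts in NBH and 91 in SC and a log2 ratio of -2.33 (-3.21 to -1.61). Only 1 of the 17 NBH reads and 6 of the 91 SC reads were identical to the listed let-7i sequence, and on those reads the interval held equality. let-7j (dre) followed with -0.90 (-1.14 to -0.67), let-7d with -0.67 (-0.77 to -0.57) and let-7c with -0.43 (-0.57 to -0.29). On the higher side stood let-7h with 0.58 (0.26 to 0.90), let-7a with 0.34 (0.30 to 0.38) and let-7e with 0.23 (0.14 to 0.32). The ratios of let-7g (0.12), let-7b (0.14) and let-7f (0.27) were small, the intervals of the last pair held equality, and the signs of let-7g and let-7b turned with total counts.

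**Figure D3:**
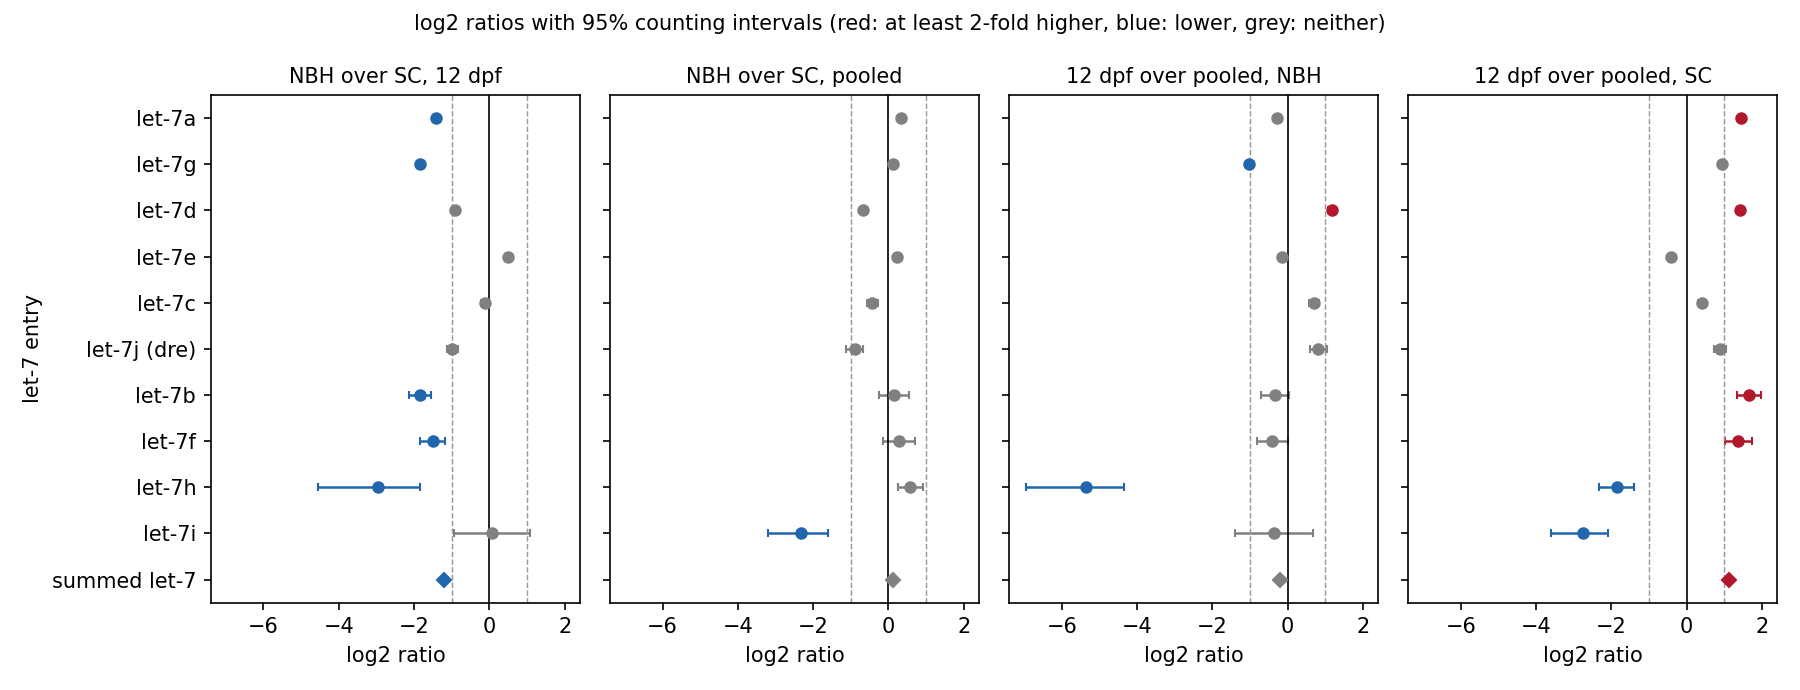
log2 ratio of each let-7 entry and of the summed family (y axis) in the 4 comparisons (panels), with bars for the 95% counting interval and dashed lines at 2-fold. 5 entries are called lower in NBH at 12 dpf and 4 higher at 12 dpf in SC, while most entries lie inside the dashed lines in the other panels. Over all entries the same rule called 13.6% lower in NBH at 12 dpf and 26.7% higher at 12 dpf in SC.

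Set against let-7a in the same library, the members kept or changed their proportions in ways that no scaling can alter. let-7f counts equalled 0.978% of let-7a counts in NBH at 12 dpf, 1.05% in SC at 12 dpf, 1.06% in pooled NBH and 1.11% in pooled SC, and the intervals of the 4 values overlapped. In identical reads alone these were 1.26%, 1.18%, 1.11% and 1.17%. let-7f, which differs from let-7a at base 12 alone, thus had a nearly fixed proportion of about 1% to let-7a. Reads of such neighbours could be assigned to either entry, and the part of this in the proportion was not tested. let-7b stood at 1.18%, 1.58%, 1.21% and 1.38% of let-7a counts, and the interval of NBH at 12 dpf (0.977 to 1.40) lay under that of SC at 12 dpf (1.45 to 1.73). In identical reads alone let-7b stood closer together, at 0.957%, 1.16%, 1.05% and 1.10%.

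The other entries did not keep a fixed proportion. let-7e counts equalled 25.3% of let-7a counts in NBH at 12 dpf, 6.74% in SC at 12 dpf, 22.8% in pooled NBH and 24.6% in pooled SC. The SC 12 dpf library was thus low and the other 3 were close. In identical reads alone these were 29.3%, 6.71%, 23.2% and 30.1%. SC at 12 dpf was again low, and pooled NBH then lay under NBH at 12 dpf and pooled SC. let-7g counts equalled 33.0%, 44.4%, 54.8% and 63.7% of let-7a counts, with both 12 dpf libraries under both pools and NBH under SC at each stage. In identical reads alone let-7g stood at 39.2%, 49.7%, 58.8% and 77.5%, with the same directions. let-7h counts equalled 0.0564% and 0.176% at 12 dpf in NBH and SC, against 2.07% and 1.75% in the pools of NBH and SC. let-7e differs from let-7a at 2 bases, let-7g at 1 and let-7h at 3.

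The likeness of patterns over the 4 libraries was measured as the Euclidean distance between log2 CPM values centred on each entry's mean, as a description over 4 points that share their scaling. The closest pair in the family was let-7a with let-7f (0.13), followed by let-7b with let-7f (0.31), let-7a with let-7b (0.34) and let-7d with let-7j (dre) (0.48). The entries farthest from the summed family were let-7h (4.34), let-7i (2.84) and let-7e (1.42). Among 124 entries outside the family with at least 100 counts in every library, the median distance from summed let-7 was 1.45, and the nearest were miR-101b (0.17), miR-128 (0.25), miR-148 (0.36), miR-455 (0.40) and miR-29b (0.41). miR-101b had 484 CPM in NBH at 12 dpf, 1083 in SC at 12 dpf, 501 in pooled NBH and 539 in pooled SC. Of these 5, miR-455 alone had mostly identical reads (70.2% to 80.3%), and the other 4 had 0.418% to 20.9%.

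The reads of let-7 were for the most part exact. Identical reads, those with exactly the listed sequence, were 76.2% of let-7 counts in NBH at 12 dpf, 87.3% in SC at 12 dpf, 87.8% in pooled NBH and 81.3% in pooled SC, against 57.1%, 59.8%, 56.2% and 59.9% over all entries. let-7a had identical shares of 67.8% (66.9 to 68.7) in NBH at 12 dpf, 83.5% (83.1 to 83.9) in SC at 12 dpf, 86.0% (85.3 to 86.7) in pooled NBH and 73.3% (72.3 to 74.3) in pooled SC. The NBH 12 dpf library was thus lowest and differed from SC at 12 dpf beyond counting error, in the comparison in which let-7a was called lower in NBH. On identical reads that let-7a ratio was -1.56, against -1.41 on all reads. let-7i had 0 of 18 identical reads in NBH at 12 dpf and 0% to 6.59% over the 4 libraries, so nearly all its counts came from reads with another sequence or length.

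Reads that matched a single reference entry were 0.612% to 3.38% of let-7a reads and 0% to 0.639% of let-7c reads. The let-7a entry lists 6 gene copies by name and the let-7c entry 2, while let-7d and let-7g, with 2 copies each, had 98.2% or more such reads. On these reads alone let-7a had 359 counts in NBH at 12 dpf and 191 in SC at 12 dpf, and its ratio turned to 1.00. The sign of its ratio turned in the other 3 comparisons too. These reads are a small part of its 10636 and 31189 reads. In each library 0 of them were identical to the listed let-7a sequence, so these ratios rest on reads with another sequence or length.

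**Figure D4:**
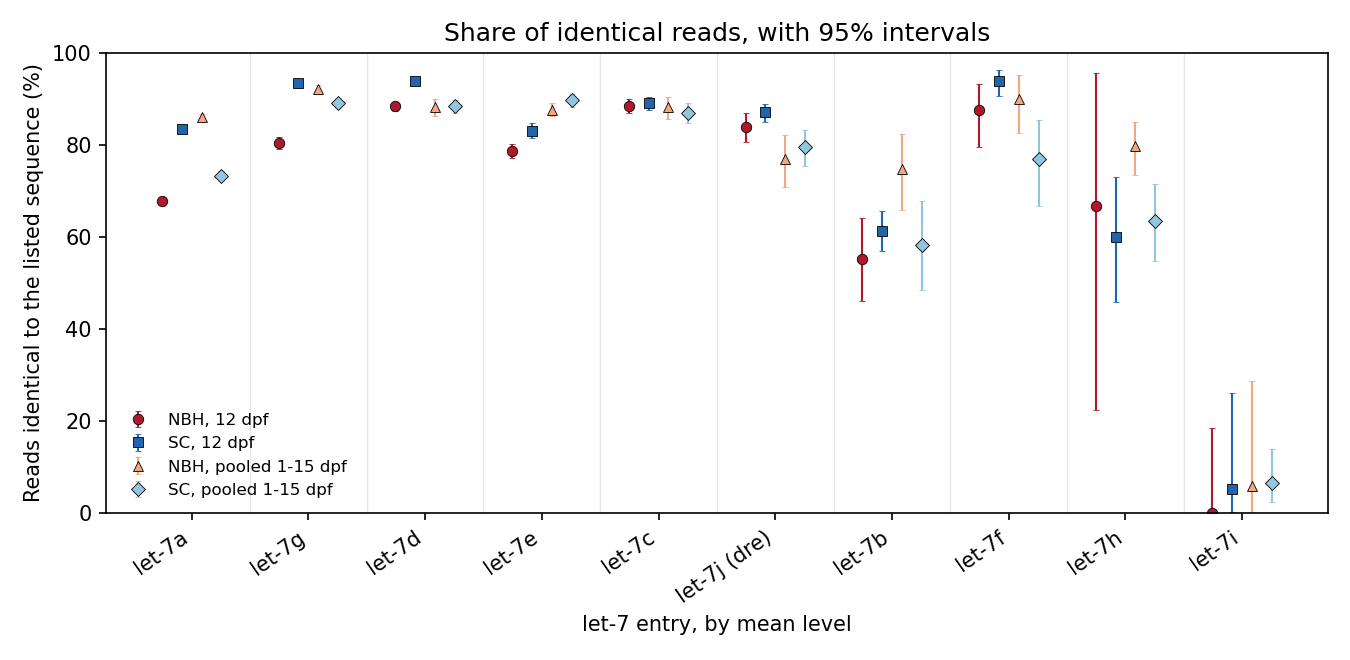
Percent of each let-7 entry's reads identical to the listed sequence (y axis) by entry (x axis, by mean level) and library (points), with 95% exact binomial intervals. let-7a differs between libraries, from 67.8% in NBH at 12 dpf to 86.0% in pooled NBH, and let-7i stays at 6.59% or less.

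In other vertebrates let-7 genes lie in clusters with miR-99, miR-100 and miR-125, the last being the relative of lin-4 of Caenorhabditis elegans, and miR-98 carries the let-7 seed in mammals. No entry was named miR-98 (0 entries), and 5 entries were found for the other names. In NBH against SC at 12 dpf 0 of the 5 were called, against 13.6% lower and 24.1% higher over all entries, and their median log2 ratio was -0.01, while the let-7 median was -1.20. At 12 dpf against the pool in SC 2 of 5 were called lower, miR-100 (-1.42) and miR-125c (-1.87), with a median of -0.58, and 0 were called higher; over all entries 29.8% were called lower there and 26.7% higher. In NBH 0 of 5 were called between stages, with a median of -0.11, against 14.1% higher and 12.0% lower over all entries. In the pools miR-100 (-1.30) and miR-125c (-1.36) were called lower in NBH, 2 of 5 with a median of -0.49, against 21.1% over all entries. With 5 entries, 2 calls are not set apart from these shares.

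The most abundant entries of this list, miR-99 and miR-125b, were not among those called. miR-125b had 31943 CPM in NBH at 12 dpf, 36406 in SC at 12 dpf, 36052 in pooled NBH and 30198 in pooled SC, and all its log2 ratios lay between -0.19 and 0.27. miR-100 had 5669 CPM in NBH at 12 dpf, 6931 in SC at 12 dpf, 7539 in pooled NBH and 18603 in pooled SC, so pooled SC was high and the other 3 were close. Pooled SC was also the library in which miR-100 had the most identical reads, 79.6% against 39.5% to 49.0% elsewhere, and the part of this in its ratios was not tested.

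An additive model of population and stage over the 4 libraries was fitted as an auxiliary test with edgeR's quasi-likelihood test. With 1 residual degree of freedom, the fit takes departures from additivity as its spread, not differences between replicates, and its common dispersion was 0.4315. It called 0 of 10 let-7 entries for population and 0 for stage at a Benjamini-Hochberg adjusted p of 0.05, and 0% of all 192 entries for either term. At an unadjusted p of 0.05, 7 entries passed for population and 11 for stage, with 0 let-7 entries in each. The closest let-7 results were for stage: let-7d had a log2 change of 1.30 (SE 0.50) and let-7h one of -3.57 (SE 1.62), both at an edgeR adjusted p of 0.695.

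DESeq2 gave other counts on the same model. Its default fit called 0% of entries for population and 7.83% of the 166 entries with an adjusted p for stage, let-7h among them (DESeq2 adjusted p 0.0322). With a local dispersion trend, added after the data were seen, it called 7.14% of 154 entries for population with 0 let-7 entries, and 15.6% of 192 for stage, with let-7d (DESeq2 adjusted p 0.00401) and let-7h (0.0128). let-7d and let-7h are the entries with the same direction of stage ratio, past 2-fold, in both populations. The ratios and the fits use the same counts, so this match is not separate evidence. The let-7h values rest on 6 counts in NBH at 12 dpf.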

How the data were processed

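Small RNA of 4 killifish libraries was made with the SREK kit from total RNA of integrity number above 9.8 and sequenced on SOLiD V3, per the labels' protocols. The authors deposited raw counts of reads per mature miRNA, of identical reads and of reads matching a single entry, per the file headers; reference names came from zebrafish, pufferfish and medaka. Not given in the sources used here are the aligner, the mismatches allowed and the reference release. Tables were joined by sequence (miR-27c and miR-92a by name).

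Entries with at least 10 counts in 2 libraries were kept, and TMM in edgeR 4.0.16 under R 4.3.3 scaled the libraries. A pseudocount of 0.5, made proportional to library size, entered each log2 ratio, with the exact conditional binomial (Clopper-Pearson) 95% interval, and no p-value. Calls needed 2-fold and an interval without equality; an entry with at most 3 counts in both libraries, or not listed in a library, had no ratio. Both the ratio rule and the additive fit were tested on simulated data. For the ratio rule the simulated counts held counting error only, so it was not tried against differences between replicate libraries. DESeq2 1.42.0 was an alternative; further ones were total counts, DESeq2 size factors, TMM without let-7, identical or unique reads, no filter, a filter of 100 counts and a pseudocount of 5. Tables and figures were made in Python 3.11.15 with scipy 1.17.1, pandas 2.3.3, numpy 2.4.6 and matplotlib 3.10.9.

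Names outside let-7 were the miR-98, miR-99, miR-100 and miR-125 entries and the 5 nearest patterns. The members and lists were chosen with earlier results of these data known. Hairpin positions without names were not used.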

Additional observations from a re-analysis of the deposited data

Results flagged for a closer look

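let-7a and let-7g had population ratios in opposite directions at the 2 stages, each with a counting interval that left out equality. The log2 ratio of NBH over SC at 12 dpf minus that in the pools was -1.75 for let-7a and -1.96 for let-7g. Read as stage ratios, 12 dpf over pool in NBH minus that in SC, the differences are the same numbers, since they come from the same 4 libraries. let-7h was also opposite between stages, lower in NBH at 12 dpf and on the higher side in the pools, with a difference of -3.53 that rests on 6 counts in NBH at 12 dpf. let-7f had opposite stage ratios, on the lower side in NBH and higher in SC, with a difference of -1.77 and an NBH interval that ended just short of equality. With total counts as the scaling, the pooled ratio of let-7g was -0.083, so its population ratios were then not opposite. The NBH stage interval of let-7f with total counts (-0.74 to 0.08) held equality, so its stage ratios were then not opposite either. These differences were not tested, because each group had 1 library. On identical reads the differences were -2.17 for let-7a, -2.12 for let-7g and -3.56 for let-7h, again with opposite directions. let-7b, whose pooled and NBH stage intervals held equality on all reads, was also opposite on identical reads between stages and between populations, with a difference of -2.37. On those reads let-7f was opposite in its population ratios (-1.45 at 12 dpf and 0.54 in the pools, a difference of -1.99), and its NBH stage interval held equality. The SC 12 dpf library enters each of them.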

How the results depend on the processing

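No paired analysis was possible because each group has 1 library. The additive fit, which takes stage into account for population and population for stage, is the nearest to a blocked fit. With a library left out, the additive fit has no residual degree of freedom and was not run. The calls of single let-7 entries were the same in 40 of 40 ratios without the count filter and with a pseudocount of 5, in 38 of 40 with DESeq2 size factors, in 36 of 40 with total counts and with TMM without let-7, in 35 of 36 with a filter of 100 counts, and in 34 of 38 with identical reads and with unique reads. Unique reads reversed let-7a, to 1.00 in NBH against SC at 12 dpf and to -0.84 at 12 dpf against the pool in SC. They are few, and 0 of them were identical to the listed let-7a sequence.

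The summed let-7 log2 ratio of NBH over SC at 12 dpf was -1.33 with total counts, -1.34 with DESeq2 size factors, -1.32 with TMM without let-7, -1.26 on identical reads and -1.15 on unique reads; it was -1.03 without let-7a and -0.12 without let-7a, let-7d and let-7g. At 12 dpf over the pool in SC it was 1.33 with TMM without let-7, 1.26 on identical reads, 0.73 on unique reads, 0.83 without let-7a and 0.15 without all 3 entries. In NBH it was -0.13 with total counts, -0.32 with DESeq2 size factors, -0.28 on identical reads, -0.29 on unique reads, -0.14 without let-7a and 0.064 without all 3. In the pools it was -0.085 with total counts, 0.22 with TMM without let-7, 0.28 on identical reads, -0.12 on unique reads, -0.058 without let-7a and -0.040 without all 3. Leaving entries out of the sum was chosen after the data were seen, and let-7e and let-7c hold most of the counts left without all 3. Unique reads hold few let-7a reads, in SC 191 of 31189 at 12 dpf and 217 of 7816 in the pool. The sums on unique reads thus nearly leave let-7a out. Apart from these constructions, the cause of the shifts was not tested.

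Counts of let-7 entries called moved as follows. In the pools, 2 were lower in NBH with total counts and 0 on identical reads or with the filter of 100, which removes let-7i. Over all entries 47, 36 and 31 were lower in that order, against 40 with the main TMM scaling. The filter of 100 also leaves fewer entries to call. At 12 dpf 2 were higher in NBH on unique reads, namely let-7a and let-7c. Of all entries 42 were then higher, against 46. The let-7c call rests on 10 unique reads in NBH and 0 in SC, and 0 of them were identical to its listed sequence. With total counts, DESeq2 size factors or TMM without let-7, 7 were lower in NBH at 12 dpf. With the other scalings, in the order given, 31, 31 and 30 of all entries were lower, against 26. In SC 6 were higher at 12 dpf with TMM without let-7 and on identical reads, and 3 on unique reads; 1 was lower at 12 dpf with the filter of 100. In NBH 2 were higher at 12 dpf on identical reads, and 1 was lower with total counts and with the filter of 100. The additive stage fit called 1 let-7 entry with DESeq2 and 2 with its local trend, where 13 of 166 and 30 of 192 entries were called. Over all entries, other scalings moved the median log2 ratio by up to -0.21 (total counts, pools) and 0.20 (TMM without let-7, SC stage), and the split at 12 dpf between populations was 46 higher and 26 lower, against 40 and 31 with total counts. In NBH between stages it was 27 higher and 23 lower, against 32 and 19 with total counts and 23 and 28 with DESeq2 size factors. At 12 dpf let-7h had 6 counts in NBH, and let-7i had 18 in NBH and 19 in SC. Such low counts limit what their ratios can show.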
